A study of Mus musculus with 23 samples.

Results

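Inversion 3 (Inv3) is an engineered inversion on mouse chromosome 1, and its comparison with wild type covers every row of the authors' table for that pair, 79 genes of the 34682 that the series' tables name. The RNA came from distal forelimbs of embryos at E11.5. There were 5 wild type libraries (FL-E115-WT, genotype WT) and 3 Inv3 libraries (FL-E115-Inv3, genotype given as mutant), 8 of the 23 libraries of the series, and the labels name G4 ESC, a mouse embryonic stem cell line, as the cell type of both groups. By the series' design text, the inversions carry an enhancer cluster from the domain of Epha4 into a gene-dense region, so the comparison asks which genes along that chromosome change in the limb. No dose, drug or further allele is named, the breakpoints are not used here, and nothing in the labels says whether embryos came from 1 clone or several or were pooled.

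Enhancers act on genes within the same topological domain, a stretch of chromosome that folds on itself and is often bounded by CTCF sites. A rearrangement can place an enhancer beside genes it does not normally meet, and such genes may then be switched on in the enhancer's tissue. Epha4, the native neighbour of the cluster, encodes an ephrin receptor of the limb mesenchyme. Ihh encodes the Indian hedgehog ligand of cartilage growth zones, Wnt6 and Wnt10a encode ligands of the ectoderm, and Pax3 encodes a transcription factor of the precursors that migrate into the limb to form muscle. Fev, a neighbour of Ihh, encodes an ETS transcription factor known from serotonergic neurons.

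The values are the authors' comparison of groups, so no value per library can be shown, library depths are unknown, and replicate spread enters only through the standard error (SE) of each log2 change, written after ± throughout. A positive log2 change means higher in Inv3. A gene was called when its deposited adjusted p was under 0.05, and 95% intervals were computed as 1.96 SE on either side. The mean count is the authors' mean normalised count over the 18 libraries of a joint fit. For the 72 genes listed for all 4 inversions, group levels were rebuilt from that mean and the deposited log2 changes, and they share the limits of those changes. All 79 genes lie on chromosome 1 of the GRCm38 annotation, so widely used limb markers on other chromosomes were not analysed here. The chromosome 1 genes Epha4 and Fn1, both of limb mesenchyme, had rebuilt levels of 9902 and 25981 in wild type and 9403 and 31804 in Inv3.

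Cdk5r2, Fev and Ihh follow one another among the listed genes and were all called higher, while Wnt6, a few genes before them, was not called. Their promoters are shown because the largest rises of the comparison lie here. Each is 300 bases of RefSeq sequence on GRCm38.p6, from 250 bases before to 50 after the annotated start, and this build is not the authors' mm9. Cdk5r2 is at chr1:74854779-74855078 on the plus strand, Fev at chr1:74885359-74885658 on the minus strand, Ihh at chr1:74951623-74951922 on the minus strand and Wnt6 at chr1:74771642-74771941 on the plus strand. Capitals mark a GC box, a CCAAT box or a homeobox core, spelled out after the sequences, on either strand.
Cdk5r2: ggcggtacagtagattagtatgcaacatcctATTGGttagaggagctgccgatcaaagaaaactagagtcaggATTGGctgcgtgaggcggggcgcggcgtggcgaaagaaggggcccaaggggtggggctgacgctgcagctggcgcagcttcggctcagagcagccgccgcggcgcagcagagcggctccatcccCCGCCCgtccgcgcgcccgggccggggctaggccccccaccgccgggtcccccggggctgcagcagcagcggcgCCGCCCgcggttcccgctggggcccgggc
Fev: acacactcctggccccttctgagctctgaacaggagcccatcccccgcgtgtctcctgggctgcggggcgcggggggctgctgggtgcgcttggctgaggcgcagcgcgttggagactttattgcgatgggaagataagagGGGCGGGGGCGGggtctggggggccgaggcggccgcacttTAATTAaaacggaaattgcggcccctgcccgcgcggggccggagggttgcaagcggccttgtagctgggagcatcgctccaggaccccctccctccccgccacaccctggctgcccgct
Ihh: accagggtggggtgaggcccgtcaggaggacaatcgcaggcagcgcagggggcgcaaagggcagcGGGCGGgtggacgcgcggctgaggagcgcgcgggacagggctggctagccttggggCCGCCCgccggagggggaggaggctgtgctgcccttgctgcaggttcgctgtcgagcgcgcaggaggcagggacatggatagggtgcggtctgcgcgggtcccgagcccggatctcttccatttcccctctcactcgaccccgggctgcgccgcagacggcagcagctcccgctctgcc
Wnt6: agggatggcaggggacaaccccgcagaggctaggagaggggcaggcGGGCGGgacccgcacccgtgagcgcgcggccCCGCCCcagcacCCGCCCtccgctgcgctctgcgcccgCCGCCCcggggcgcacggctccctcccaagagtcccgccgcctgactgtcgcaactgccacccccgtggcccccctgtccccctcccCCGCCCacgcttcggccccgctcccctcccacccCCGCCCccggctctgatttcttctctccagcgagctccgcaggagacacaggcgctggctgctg

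All 4 promoters held a GC box, with 33 CpG pairs in that of Cdk5r2, 25 in Fev, 30 in Ihh and 31 in Wnt6, against a median of 7 over 32851 mouse promoters of the same length. The GC box, GGGCGG, was found in 35.7% of all promoters and in 51 of the 83 promoter entries of the listed genes (61.4%). The homeobox core of Fev, TAATTA, was shared with 5.29% of all promoters and, among the listed genes, with that of Mogat1 alone. The CCAAT box, found in 37.4% of all, stood in the Cdk5r2 window. No TATA box, searched as TATAAA and found in 13.6% of all, stood in any of the 4. Over the 13 genes called higher the number of CpG pairs ran from 5, in the Inha promoter, to the 33 of Cdk5r2, with a median of 11. Slc4a3 with 28 and Glb1l with 26 lay close to Fev, while Prkag3 had 11, Kcne4 9 and Abca12 6. These are matches of letters in a window and no measure of binding.

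Fev was nearly silent in wild type and abundant in Inv3. Its rebuilt level was 5.92 normalised counts in wild type and 641 in Inv3. By these rebuilt levels, the 3 Inv3 libraries held 94.3% of all Fev counts of the joint fit. The log2 change was 6.76 ± 0.237 in the authors' deposited table, a fold of 108 with an interval of 78.5 to 150. The other inversions lay at 0.57 (Inv1), 0.55 (Inv2) and 0.59 (Inv4) on the log2 scale in the authors' deposited table, with SE of about the same size. Because the wild type level is so low, the fold is less certain than the Inv3 level: for Inv1, the rebuilt Fev level was 8.77, while the separate table of Inv1DelCTCF against Inv1 gives 2.73 on the same scale.

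Ihh and Cdk5r2, on either side of Fev, rose less. Ihh went from a rebuilt level of 27.6 in wild type to 93.9 in Inv3. Cdk5r2, which encodes a neuronal activator of the kinase Cdk5, went from 16.7 to 45.1. For Inv1 the rebuilt levels were 30.2 for Ihh and 20.7 for Cdk5r2. The separate comparison of Inv1DelCTCF against Inv1 gives 11.46 for Ihh and 14.7 for Cdk5r2 on the same scale. The low wild type levels of Ihh and Cdk5r2, and so their folds, share the limit given for Fev. The deposited changes were 1.77 ± 0.267 (adjusted p = 6.46e-09) for Ihh and 1.43 ± 0.25 (adjusted p = 7.00e-07) for Cdk5r2 in the authors' deposited table. The listed genes that frame these 3 were not called. Wnt10a on one side had a log2 change of 0.39 ± 0.189 (adjusted p = 0.116) and Nhej1, a DNA repair gene on the other side, one of -0.07 ± 0.127 in the authors' deposited table.

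**Figure D1:**
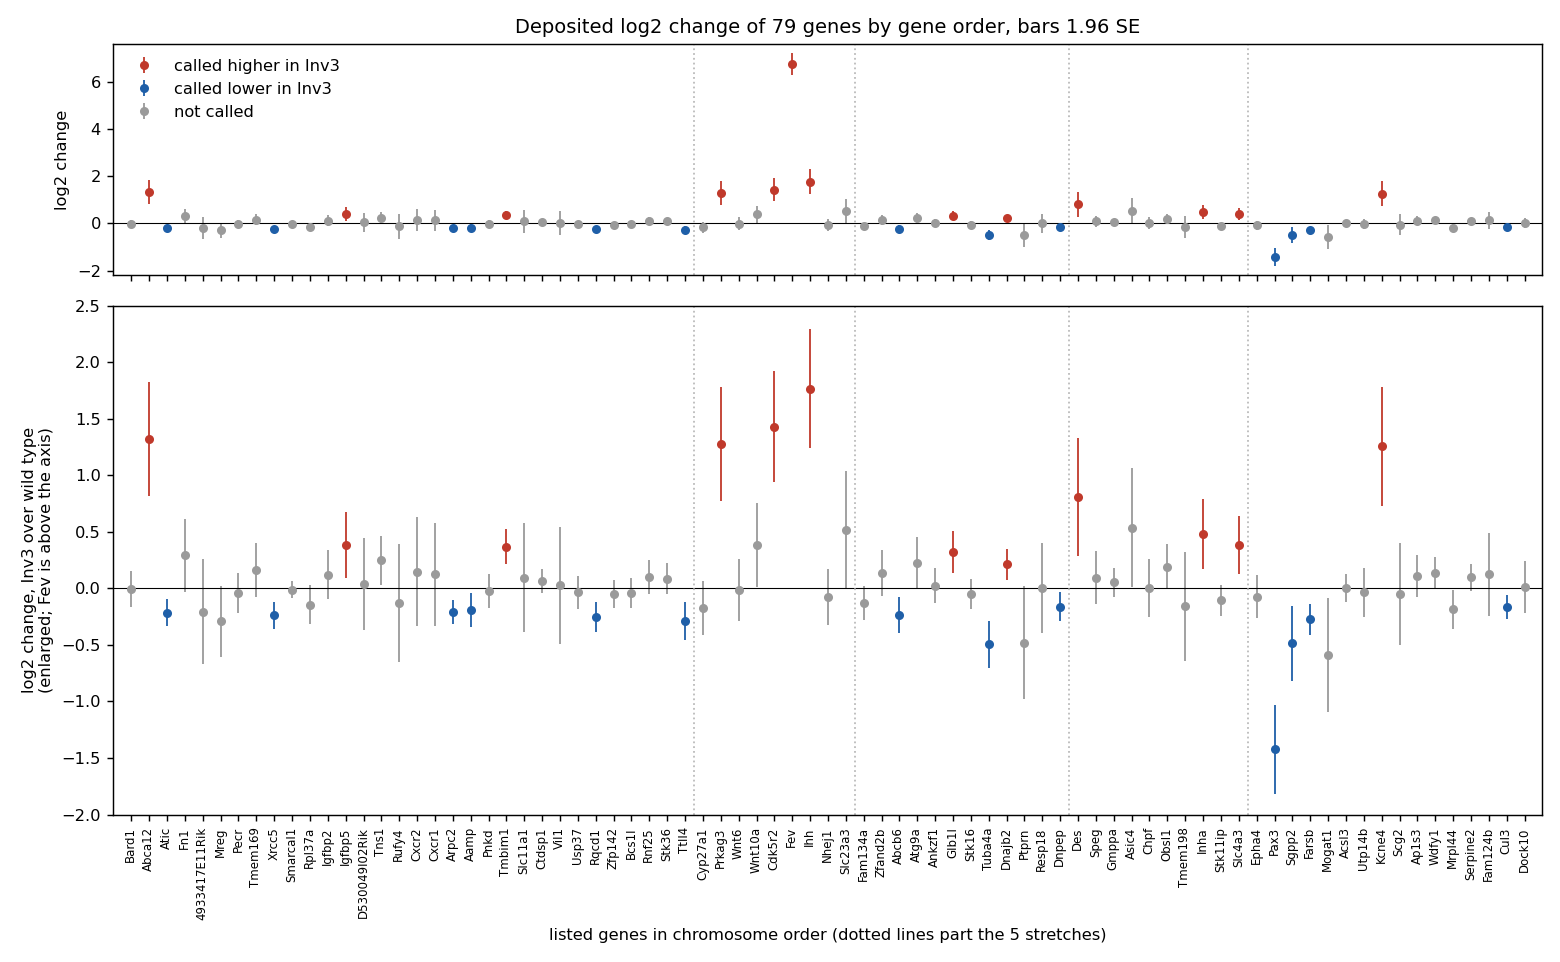
Deposited log2 change of Inv3 over wild type for the 79 listed genes in chromosome order, with bars of 1.96 SE. The lower panel enlarges the range around 0. Fev at 6.76 stands above all others in the upper panel, with called rises at Cdk5r2 and Ihh beside it, and Pax3 at -1.42 is the lowest point.

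In all, 5 stretches of the chromosome were described, bounded by genes. The 9 genes from Cyp27a1 to Slc23a3 held 4 rises and no fall, with a median log2 change of 0.51 in the authors' deposited table, against 13 rises (16.5%) and 13 falls (16.5%) among all 79 genes, 32.9% called in all, with a median of 0.01. Before them, the 32 genes from Bard1 to Ttll4 held 3 rises and 6 falls with a median of -0.01. After them, the 12 genes from Fam134a to Dnpep held 2 rises and 3 falls (median -0.02), the 10 genes from Des to Slc4a3 held 3 rises and no fall (median 0.14), and the 16 genes from Epha4 to Dock10 held 1 rise and 4 falls (median -0.04). The stretch of Fev also had few abundant genes: its median mean count was 59.6, against 679 over all genes. These counts are descriptions and were not tested against one another.

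Some calls in the same direction were neighbours, and no background for such runs was computed. Besides Cdk5r2, Fev and Ihh, only Pax3, Sgpp2 and Farsb formed a run of 3, all lower, and Arpc2 and Aamp a run of 2, both lower. The run at Pax3 follows Epha4, the first gene of its stretch, which had a log2 change of -0.07 ± 0.098 (adjusted p = 0.630) in the authors' deposited table, an interval of 0.832 to 1.08 of the wild type level.

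Pax3 fell from a rebuilt level of 179 in wild type to 66.9 in Inv3. Its log2 change was -1.42 ± 0.201 (adjusted p = 4.14e-10) in the authors' deposited table. For Inv1 the rebuilt Pax3 level was 134, while the separate comparison of Inv1DelCTCF against Inv1 gives 151. In tissue of many cell types, fewer Pax3 cells and less Pax3 RNA per cell cannot be told apart. None of the other genes listed as muscle markers was called lower. Des, the intermediate filament gene of muscle, rose from a rebuilt 299 to 524 (log2 change 0.81 ± 0.268, adjusted p = 0.0129 in the authors' deposited table). Speg and Obsl1 were not called in the authors' deposited table, at 0.09 ± 0.120 and 0.19 ± 0.101. How specific Obsl1 is to muscle in this tissue was not tested. Summed over these 4 markers, the rebuilt level was 6404 in wild type and 7286 in Inv3, and none was at 0. Most of that sum was Obsl1, at 4934 and 5636, so it says little about Pax3 or Des.

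Sgpp2, a sphingosine phosphatase gene next to Pax3, had a log2 change of -0.49 ± 0.169 (adjusted p = 0.0187) and Farsb, a phenylalanine tRNA synthetase subunit gene, one of -0.27 ± 0.069 (adjusted p = 0.000717) in the authors' deposited table. Sgpp2 and Farsb overlap on opposite strands by 248 exonic bases in GRCm38, and the strand setting of the counting is not given in the sources used here, so part of their reads could be shared. Beyond them, Mogat1, whose mean count was 4.36, had a log2 change of -0.59 (adjusted p = 0.0745) and Acsl3, a fatty acid activating enzyme gene, one of 0.00 ± 0.064 in the authors' deposited table. Kcne4, a potassium channel subunit gene, rose from a rebuilt 13.1 to 31.4, with a log2 change of 1.26 ± 0.268 (adjusted p = 6.25e-05) in the authors' deposited table. Cul3, a ubiquitin ligase scaffold gene near the far end of the list, fell by 0.16 ± 0.055 on the log2 scale in the authors' deposited table, and Serpine2 and Scg2 between them were not called, at 0.10 ± 0.059 and -0.05 ± 0.230.

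On the other side of Fev, Prkag3, the gene of a kinase subunit (AMP-activated kinase) of skeletal muscle, rose from a rebuilt 11.7 to 28.3 (in the authors' deposited table a log2 change of 1.28 ± 0.257, adjusted p = 2.18e-05). For Inv1 the rebuilt Prkag3 level was 14.5, while the separate comparison of Inv1DelCTCF against Inv1 gives 7.05. Its neighbours were not called: the authors' deposited table gives -0.17 ± 0.122 for Cyp27a1, a sterol hydroxylase gene, and -0.01 ± 0.141 for Wnt6, which for Wnt6 is an interval of 0.818 to 1.2 of the wild type level. At the start of the list Abca12, a lipid transporter gene of the epidermis, rose from a rebuilt 16.9 to 42.1 (log2 change 1.32 ± 0.257, adjusted p = 1.05e-05 in the authors' deposited table). With Wnt6 and Wnt10a it makes up the ectoderm markers of the list, whose summed rebuilt level was 1202 in wild type and 1230 in Inv3, none at 0. Wnt6 made up most of that sum, at 1142 and 1132, while Wnt10a, not called, lay at 43.1 in wild type and 56.3 in Inv3. A part of other cell types in the rise of Abca12 was not tested.

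The 3 genes of the tubulin and chaperone list were all called, where 32.9% of all listed genes were, and the list is too short to read more from that count. Tuba4a, an alpha-tubulin gene, fell from a rebuilt 395 to 280 (in the authors' deposited table a log2 change of -0.50 ± 0.108, adjusted p = 8.84e-05), and Ttll4, a tubulin-modifying enzyme gene, had a log2 change of -0.29 ± 0.085. Dnajb2, a co-chaperone gene, rose by 0.21 ± 0.070 in the authors' deposited table. Tuba4a shares 1379 exonic bases with Stk16 on the opposite strand, and Stk16 had a log2 change of -0.05 ± 0.067 in the authors' deposited table. Ptprn, a gene of dense-core vesicles next to Dnajb2, was not called in the authors' deposited table, with a log2 change of -0.48 ± 0.256 (adjusted p = 0.156). Its neighbour Resp18 is listed there at 0, with a mean count of 4.81.

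**Figure D2:**
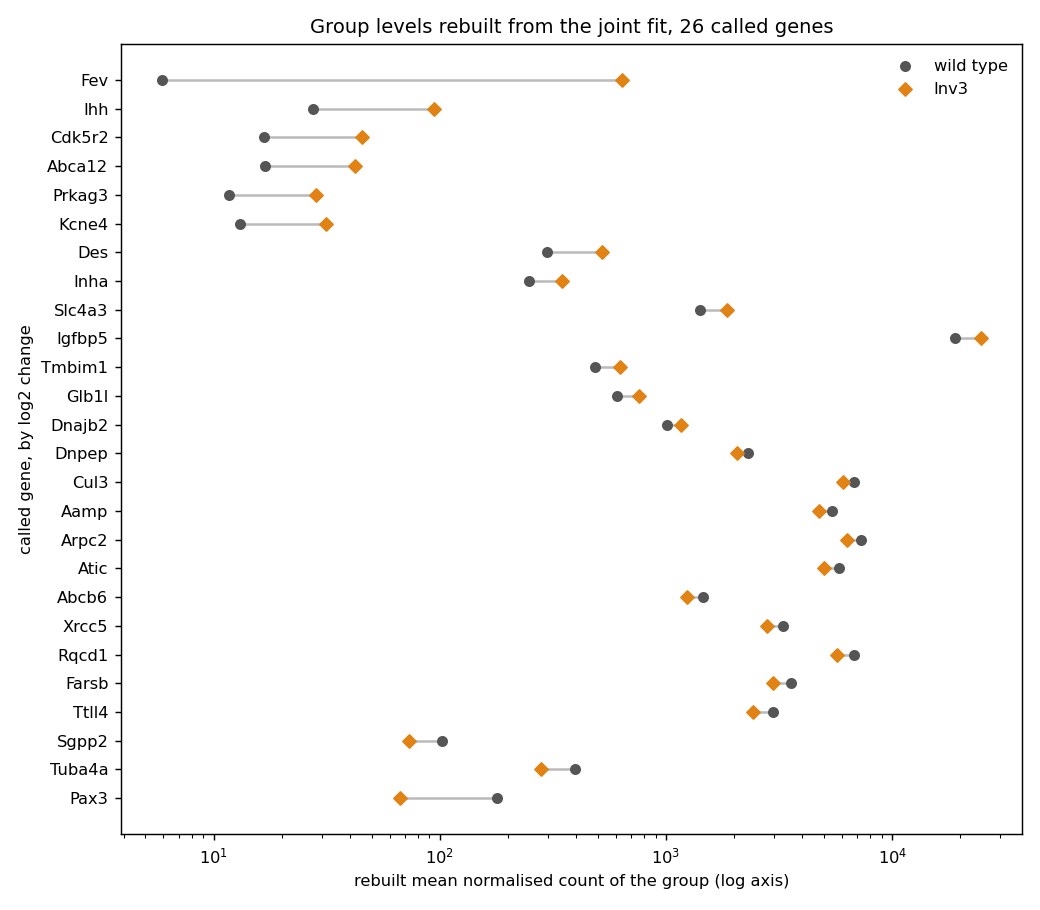
Rebuilt group levels, in normalised counts on a log axis, of the 26 called genes in wild type (circles) and Inv3 (diamonds), ordered by log2 change. Fev spans 5.92 to 641, and the genes with levels over 1000 move by small steps only.

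Among the signalling genes, 3 of 6 rose and none fell, with a median log2 change of 0.38 against 0.01 over all 79. For this and the other short lists, the counts stand against 16.5% called higher and 16.5% called lower among all listed genes, and they are descriptions of a few genes each. Besides Ihh these were Inha, the inhibin alpha subunit gene, at 0.48 ± 0.156 (adjusted p = 0.0109) and Igfbp5, an insulin-like growth factor binding protein gene, at 0.38 ± 0.150 (adjusted p = 0.0403) in the authors' deposited table. Igfbp2, the gene beside Igfbp5, had a log2 change of 0.12 ± 0.110 in the authors' deposited table and was not called. Of 6 neuronal and secretory genes only Cdk5r2 was called, and the list's median was -0.03. Of 5 muscle and channel genes 3 rose (Des, Prkag3 and Kcne4), and the list's median was 0.81. Of 9 transport and lipid genes 2 rose and 2 fell (median 0.00): Abca12 and Slc4a3, an anion exchanger gene at 0.39 ± 0.131, were higher, and Abcb6, a mitochondrial transporter gene at -0.24 ± 0.082, and Sgpp2 were lower in the authors' deposited table.

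Of the 24 cell maintenance genes, which are widely expressed, 8 fell and none rose, with a median log2 change of -0.06 against 0.01 over all 79. The share called, 33.3%, is close to the 32.9% of all listed genes, of which 16.5% fell and 16.5% rose, and nothing particular to the list is read from it. The falls were Farsb, Rqcd1 (a subunit gene of the CCR4-NOT deadenylase, at -0.25 ± 0.067), Xrcc5 (the Ku80 DNA repair gene, at -0.24 ± 0.060), Atic (a purine synthesis gene, at -0.22 ± 0.060), Arpc2 (an actin nucleation gene, at -0.21 ± 0.054), Aamp (at -0.19 ± 0.077), Cul3 and Dnpep (an aminopeptidase gene, at -0.16 ± 0.064) in the authors' deposited table. All 8 are abundant: of the 16 list members with a mean count of 1000 or more, 8 fell, while of the 8 below that none was called. Of the 18 other genes with such a mean, 3 rose and 2 fell. Rqcd1 shares 134 exonic bases with Usp37 on the opposite strand, and Usp37 had a log2 change of -0.04 ± 0.074 in the authors' deposited table.

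Calls differed with the mean count. None of the 10 genes with a mean under 10 was called, although Mogat1 at -0.59 and Slc23a3, a transporter gene next to Nhej1, at 0.51 ± 0.267 (adjusted p = 0.143) had larger changes in the authors' deposited table than 18 of the 26 called genes. From 10 to under 100, 5 of 12 rose and 1 fell, and the rises lay between 1.26 and 1.77. From 100 to under 1000, 5 of 23 rose and 2 fell. With a mean of 1000 or more, 3 of 34 rose and 10 fell, none by 0.5 or more on the log2 scale, and the falls lay between -0.29 and -0.16.

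The median SE was 0.241 under 10, 0.253 from 10 to under 100, 0.109 from 100 to under 1000 and 0.0745 above in the authors' deposited table. At those SE values and the smallest Wald statistic called (2.49), a log2 change of 0.63 would be called in the second class and one of 0.19 in the last. Small changes like those of the maintenance genes were therefore not detectable at low counts. The largest SE was 0.268, and genes with a mean under 10 had SE values between 0.203 and 0.267, no larger than those of the next class. Whether the authors' fit drew the changes of low genes toward 0 is not given in the sources used here, and a small deposited change of a low gene is no evidence of an unchanged level. The folds, intervals and rebuilt levels of low genes share this limit.

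**Figure D3:**
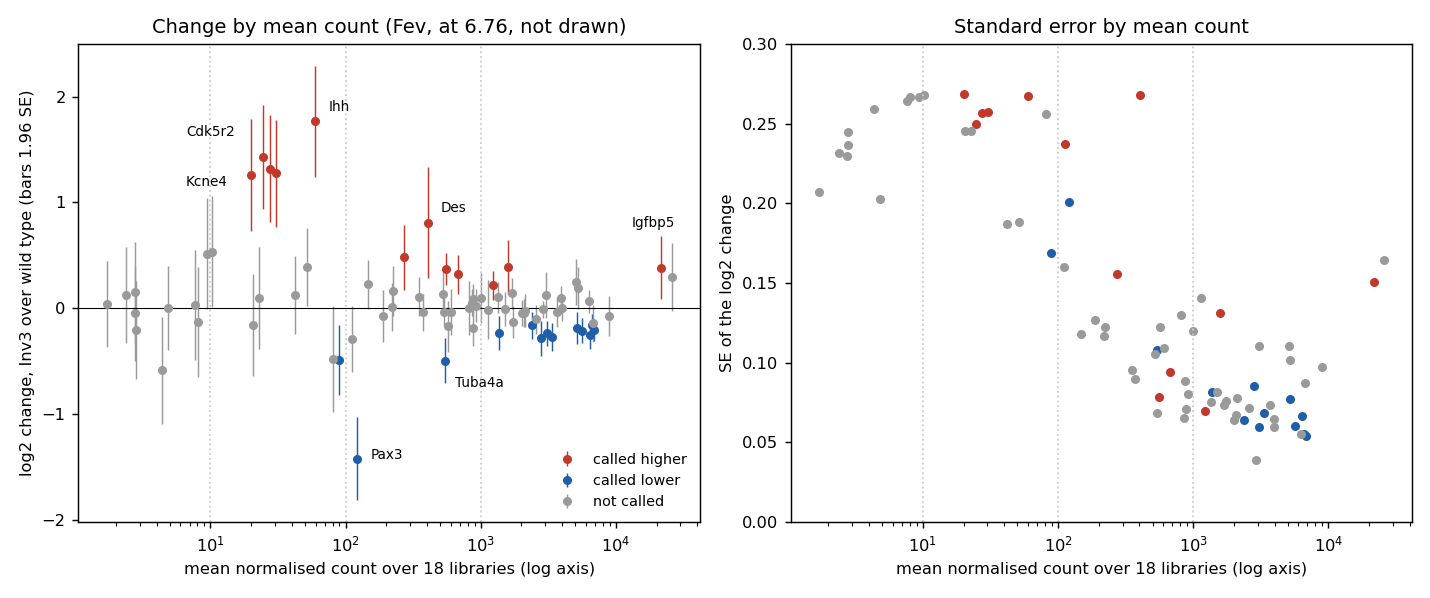
Left, log2 change of Inv3 over wild type against the mean normalised count over 18 libraries (log axis), with bars of 1.96 SE and without Fev. Right, the SE against the same mean. Called rises of low genes exceed 1.2, while called falls of genes over 1000 lie between -0.29 and -0.16 where the SE is small.

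The deposited p-values carry the place of each gene in the whole genome. Adjusted p over p of Fev is 18447, a whole number, as when Fev had the smallest p of 18447 tests, and p times 18447 over adjusted p then gives a rank, whole to within 0.001 for 54 of the 79 genes and an upper limit of the rank for the rest. By this reckoning Pax3 stood at rank 61, Ihh at 109 and Cdk5r2 at 266. Abca12 stood at 500 or better, Prkag3 at 616, Tmbim1 at 795, Kcne4 at 825 and Tuba4a at 916 or better. Of the 60 genes with a smaller p than Pax3, 59 are not among the 79 listed.

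Aamp, the last called gene, stood at rank 5085, and Mogat1, the first not called, at 5736. Between 5085 and 5735 genes were thus called across the genome, 27.6% to 31.1% of those tested, and the 32.9% of the listed genes is close to that share. The difference of these shares was not tested, and the count of calls is read here as no result about the listed genes. By rank, 4 of the listed genes (Fev, Pax3, Ihh and Cdk5r2) were among the first 266 of the genome.

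**Figure D4:**
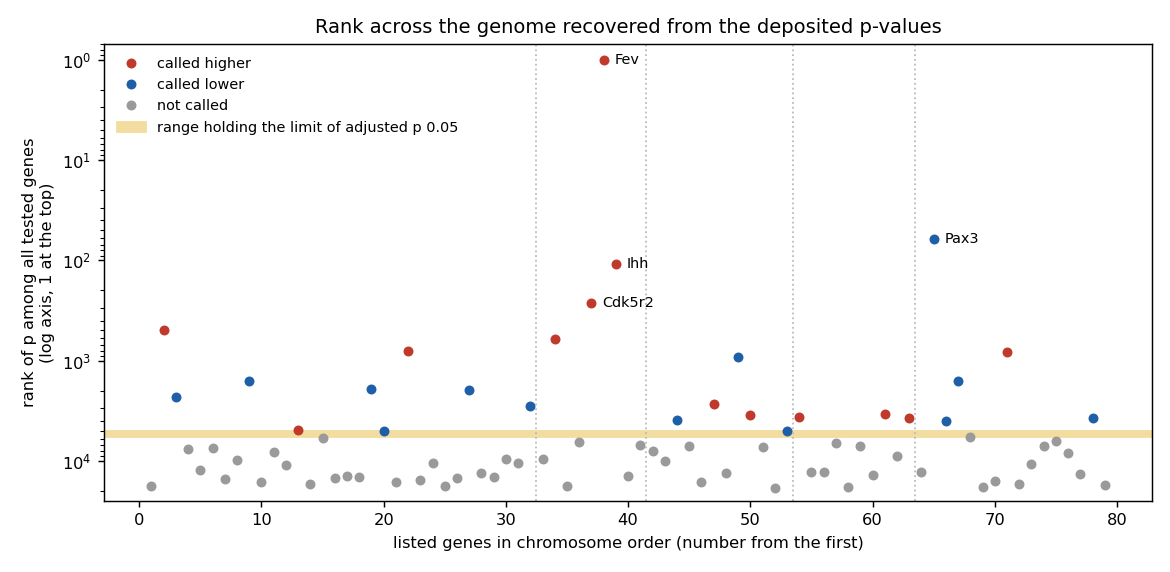
Rank of each listed gene's p among all 18447 tests (log axis, 1 at the top), by chromosome order; where the rank is not whole the point is an upper limit. The band from 5085 to 5735 holds the limit of the call. Fev stands at 1, Pax3 at 61, Ihh at 109 and Cdk5r2 at 266, and Abca12 at 500 or better comes next.

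Transcript composition moved with the direction of the calls. The median GC content of the longest transcript was 55.9% in the 13 genes called higher and 48.5% in the 13 called lower, against 52.5% in the 53 not called, and across the 79 genes the Spearman correlation of log2 change with GC content was 0.312. The ranges overlapped widely, from 45.5% to 63.9% in the genes called higher and from 38.5% to 54.1% in those called lower. Genes called lower also had more CpG pairs in their promoters (median 25.5, 12 of 13 with an entry) than those called higher (median 11) and a higher median mean count (3074 against 271). Over all genes these relations were weak. The Spearman correlation of log2 change was -0.133 with CpG pairs (73 genes) and -0.213 with the mean count (79 genes). Genes are not independent replicates, these are descriptions, and their part in the calls was not tested.

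Tmbim1 and Glb1l were the remaining called rises. Tmbim1, a membrane gene linked to protection from cell death, rose from a rebuilt 484 to 625 (log2 change 0.37 ± 0.078, adjusted p = 5.62e-05 in the authors' deposited table). It lies within Pnkd on the opposite strand but shares no exonic base with it, and Pnkd had a log2 change of -0.02 ± 0.078 in the authors' deposited table. Glb1l, a galactosidase-like gene, rose in the authors' deposited table by 0.32 ± 0.094 (adjusted p = 0.00454), and it shares 505 exonic bases with Ankzf1, which had a log2 change of 0.02 ± 0.080. Tns1, Mrpl44 and Asic4 fell short of the call, with log2 changes of 0.25, -0.19 and 0.53 and adjusted p values of 0.0786, 0.105 and 0.127 in the authors' deposited table.

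The Inv3 changes were set against those of the other inversions, which share the 5 wild type libraries, by dividing the difference of both log2 changes by its combined SE, with normal p-values adjusted by Benjamini-Hochberg over all genes of each pair. Inv3 differed from Inv2 at 3 of 74 genes (4.05%) and from Inv4 at 3 of 72 (4.17%), but from Inv1 at 18 of 78 (23.1%). The combined SE counts the shared wild type libraries for both sides, and with that part removed the counts were 10 for Inv2, 4 for Inv4 and 23 for Inv1. Fev was the 1 gene that differed from all 3. Cdk5r2 was higher than in Inv1 by 1.12 ± 0.356 (adjusted p = 0.0106) and than in Inv2 by 1.11 ± 0.354 (adjusted p = 0.0433), but its difference from Inv4 of 0.80 (interval 0.0972 to 1.5) did not pass the adjusted test. Tuba4a was lower than in Inv2 by a difference of -0.68 ± 0.146 (adjusted p = 0.000121).

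Epha4 was higher in Inv3 than in Inv1, with a difference of 0.37 ± 0.138 (adjusted p = 0.0372). Over wild type it was not called in Inv3, at -0.07, and was called lower in Inv1, at -0.44 ± 0.098 (adjusted p = 0.00739 by the authors' Wald test). Abca12 and Kcne4 were higher than in Inv1 by 0.95 ± 0.365 (adjusted p = 0.0388) and 1.06 ± 0.379 (adjusted p = 0.0265). Over wild type both were also called higher in Inv4, at 1.13 ± 0.259 and 0.91 ± 0.268, and their differences between Inv3 and Inv4 did not pass. For Ihh the difference from Inv4 was 0.03 (interval -0.71 to 0.77) and that from Inv2 was 0.40 (interval -0.34 to 1.14), and neither passed. For Pax3 the differences were -0.53 from Inv2 (interval -1.07 to 0.0102) and -0.58 from Inv4 (interval -1.14 to -0.0264), and neither passed after adjustment. With the shared wild type part removed, the adjusted p was 0.0685 for Cdk5r2 against Inv4, 0.084 for Pax3 against Inv2 and 0.113 for Pax3 against Inv4. Of the 13 genes called higher in Inv3, 7 were also called higher in Inv4, 1 in Inv2 and 1 in Inv1. Of the 13 called lower, 4 were called lower in Inv4, 1 in Inv2 and 0 in Inv1, where 2 were called higher. These counts are descriptions, and all inversions share the wild type libraries.

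**Figure D5:**
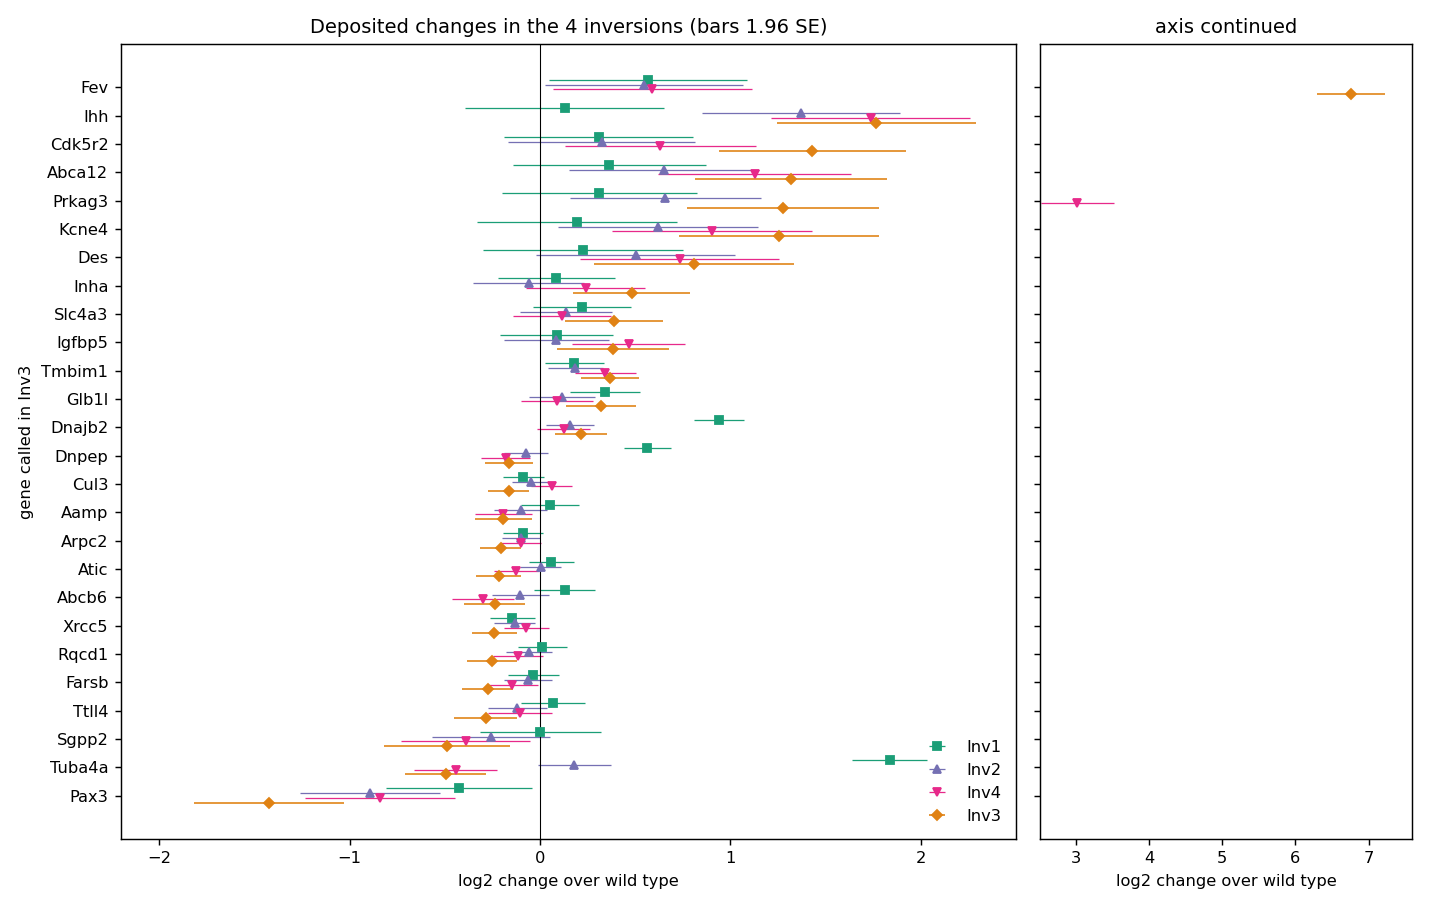
Deposited log2 changes over wild type, with bars of 1.96 SE, of the 26 genes called in Inv3, in each of the 4 inversions. All 4 share the wild type libraries. Only Inv3 has Fev at 6.76, while Ihh lies at 1.77 in Inv3 and at 1.74 in Inv4.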

How the data were processed

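RNA libraries of distal forelimbs, 5 of wild type and 3 of Inv3, were compared by the authors. Per the submitters' processing notes, STAR, DESeq2 and the mouse build mm9 were used; versions, annotation and counting settings are not given in the sources used here. Per the file headers, the deposited table gives a mean normalised count (a signal pooled over libraries), a log2 fold change with its SE, the Wald score that divides one by the other, and a p-value, raw and adjusted, all deposited from the authors' DESeq2 Wald test. The 4 tables against wild type hold identical means for shared genes, so they were taken as 1 fit of 18 libraries. Nothing in the labels says that libraries came from separate litters, so the p-values cover only spread among these libraries, which may be technical. No value per library was used, so depth is unknown and no count test was run.

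A rebuilt wild type level is the mean times 18 over the sum of libraries weighted by their deposited folds. The headers do not name the numerator. Inv1 levels rebuilt for the 49 genes whose mean reaches 300 were set against the Inv1DelCTCF table. The residual is the median of absolute log2 differences after their own median, a common offset, was taken off. It was 0.0124, with an offset of 0.137, if positive means higher in the mutant. This takes positive as higher in Inv1, the group named first, in the Inv1DelCTCF comparison. With positive as higher in Inv1DelCTCF there it was 0.107, and it was larger under the other joint conventions. Differences between inversions used a normal test with Benjamini-Hochberg adjustment, conservative because wild type libraries are shared. It was tested on simulated data with planted differences of a single size. That size is larger than several differences called here, such as that of Rqcd1, so the simulation does not cover those. Alternatives were the thresholds 0.01 and 0.1, a mean count of at least 10, a minimum log2 change of 0.25 and removal of the shared wild type part.

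Named genes are all called genes, the 5 not called with the smallest adjusted p, and 11 by name, of which Wnt10a is also one of those 5 (Epha4, Wnt6, Wnt10a, Cyp27a1, Nhej1, Slc23a3, Ptprn, Resp18, Acsl3, Serpine2 and Scg2); overlapping partners, Igfbp2, Speg, Obsl1 and Fn1 were added as neighbours or markers. The genes, lists and rules were chosen with earlier results of these data known. Gene order, overlaps and transcript GC came from GENCODE M21 (GRCm38), where all 79 genes matched, 2 through an older symbol; 73 had a RefSeq promoter entry. No coordinate was converted between builds. The software was matplotlib 3.10.9, SciPy 1.17.1, numpy 2.4.6, pandas 2.3.3 and Python 3.11.15.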

Additional observations from a re-analysis of the deposited data

Results flagged for a closer look

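Several genes changed differently in Inv3 and in another inversion, by the test of the difference of the log2 changes adjusted over all genes of the pair. Against Inv1, the difference of Inv3 minus Inv1 was 6.19 for Fev, 1.64 for Ihh, 1.12 for Cdk5r2, 0.95 for Abca12, 0.96 for Prkag3, 1.06 for Kcne4 and 0.37 for Epha4, each higher in Inv3. It was -0.997 for Pax3, -2.33 for Tuba4a, -0.26 for Rqcd1, -0.28 for Atic, -0.35 for Ttll4, -0.73 for Dnajb2, -0.37 for Abcb6, -0.73 for Dnpep, -4.30 for Ptprn, -0.44 for Fam134a and -1.66 for Resp18, each lower in Inv3 than in Inv1. Of these, Ptprn (3.82), Tuba4a (1.84), Resp18 (1.66), Dnajb2 (0.94), Dnpep (0.56) and Fam134a (0.31) were called higher in Inv1 over wild type. Epha4 was called lower in Inv1, at -0.44, and the others were not called there. In Inv3 over wild type, Ptprn, Resp18 and Fam134a were not called and Dnajb2 was called higher, at 0.21. Resp18 has a mean count of only 4.81, and its Inv3 value is listed at 0.

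Against Inv2, the difference was 6.21 for Fev, 1.11 for Cdk5r2 and -0.68 for Tuba4a. Against Inv4, it was 6.17 for Fev, -1.74 for Prkag3 and -1.72 for Cyp27a1, so Prkag3 and Cyp27a1 were higher in Inv4 and Fev was higher in Inv3. No value per library was used, so outlying libraries could not be looked for.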

How the results depend on the processing

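At an adjusted p of 0.01, 8 genes rose and 8 fell in place of 13 and 13; at 0.1, 14 rose and 14 fell. With a log2 change of at least 0.25, the falls dropped from 13 to 6, since most falls are small. At 0.01 the stretch from Fam134a to Dnpep kept 1 rise and 1 fall, that from Des to Slc4a3 had 0 rises and that from Epha4 on had 2 falls. At 0.01 the classes of mean count gave 0 falls from 10 to under 100, 3 rises from 100 to under 1000, and 0 rises and 6 falls at 1000 or more. The genes that differ from Inv1 went from 18 to 11 at 0.01, and those that differ from Inv2 from 3 to 10 once the shared wild type part of the SE was removed. A mean count of at least 10 moved no count by more than 1.5 times. The residual behind the sign was 0.0165 with a mean of at least 100 and 0.0199 with at least 20. With the sign of Inv3 alone reversed, an alternative chosen after seeing the data, it was 0.0364, and the rebuilt Inv1 level of Fev became 152 in place of 8.77, against 2.73 in the other table.

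The deposited SE does not pass 0.268 even for low genes, and leaving out a library could not be run without values per library. No paired analysis was possible because the tables hold 1 value per comparison and no columns per library.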
